A study of Homo sapiens with 8 samples.

Results

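Withdrawal of glutamine was followed in A375 cells, a human melanoma line that carries an activating BRAF mutation, after transfection with a nontargeting siRNA (siCont). Of the 8 arrays of the study, 2 form this comparison, siCont in glutamine-free RPMI1640 (labelled siCont/GlnF) and siCont in normal RPMI1640 (siCont/Normal). Both media held fetal bovine serum and the culture time was 18 h, per the labels' protocols. The same change of medium was made in cells transfected with an siRNA against BRAF (siBRAF), and these 2 arrays share none with the siCont pair. A further array of the medium series holds an siRNA against ATF4 (siATF4) in normal medium. The other 3 arrays, of DMSO and vemurafenib, lie on another scale and enter only the choice of probe sets. Each condition has 1 array of 1 culture of 1 cell line, so there is no replicate, no test and no error between cultures in what follows. Differences describe these arrays.

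Glutamine is the most abundant free amino acid in blood and culture medium. Cells use its amide nitrogen for asparagine and nucleotides and its carbon to feed the tricarboxylic acid cycle. When amino acids run short, uncharged tRNA activates the kinase GCN2, which phosphorylates eIF2 alpha. General translation then slows while the mRNA of ATF4 is translated more, and ATF4 with its bZIP partners drives genes for amino acid synthesis, uptake and tRNA charging. Amino acid shortage also lowers the activity of mTORC1, the growth kinase at the lysosome, and prolonged shortage arrests the cell cycle.

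Levels are the deposited intensities and differences are on the log2(intensity + 1) scale, glutamine-free minus normal medium, so the difference of a dim gene is understated. Each of 19775 genes was read from 1 probe set. Genes whose brighter reading lay under the array median, 15.1 in normal and 14.8 in glutamine-free medium, were left out, and 13359 genes were compared. As a sign of RNA quality, the 3' minus 5' log2 difference of the ACTB control probe sets was 0.28 without glutamine and 0.16 in normal medium, and that of the GAPDH ones 0.13 and 0.11. The part of this shift in the differences was not tested. The labelled cell type was checked on its markers. SOX10, the neural crest factor of melanocytes and melanoma, read 776 with and 1117 without glutamine, and MITF, the melanocyte lineage factor, 254 and 417. The pigment gene MLANA lay below the median on both arrays, while PMEL (19.96 and 15.3) and TYR (17.7 and 15.4) lay just above it, so the pigment genes that define melanocytes were at or near background. EPCAM and CDH1 of epithelium, PTPRC and CD14 of leukocytes and CDH5 of endothelium also lay below the median on both arrays. Of the marker lists of other cell types, 4 of 7 epithelial, 3 of 5 blood and 6 of 8 endothelial and fibroblast genes could be compared, with median differences of -0.14, -0.39 and -0.25, and their part in the results was not tested.

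Without glutamine 769 genes (5.76% of those compared) were at least 2-fold higher and 964 (7.22%) at least 2-fold lower, 13.0% in either direction. At least 4-fold differences were found for 136 higher genes (1.02%) and 128 lower ones (0.958%). The middle of the distribution stayed near 0, with a median of -0.05 and 70.0% of genes within 1.5-fold. In siBRAF cells 98.7% lay within 1.5-fold, and of 13139 genes 6 (0.0457%) stood at least 2-fold higher and 10 (0.0761%) lower. The siCont counts moved with the settings: 630 genes were lower when 16 in place of 1 was added to the intensities and 633 when all probe sets of a gene were averaged.

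**Figure D1:**
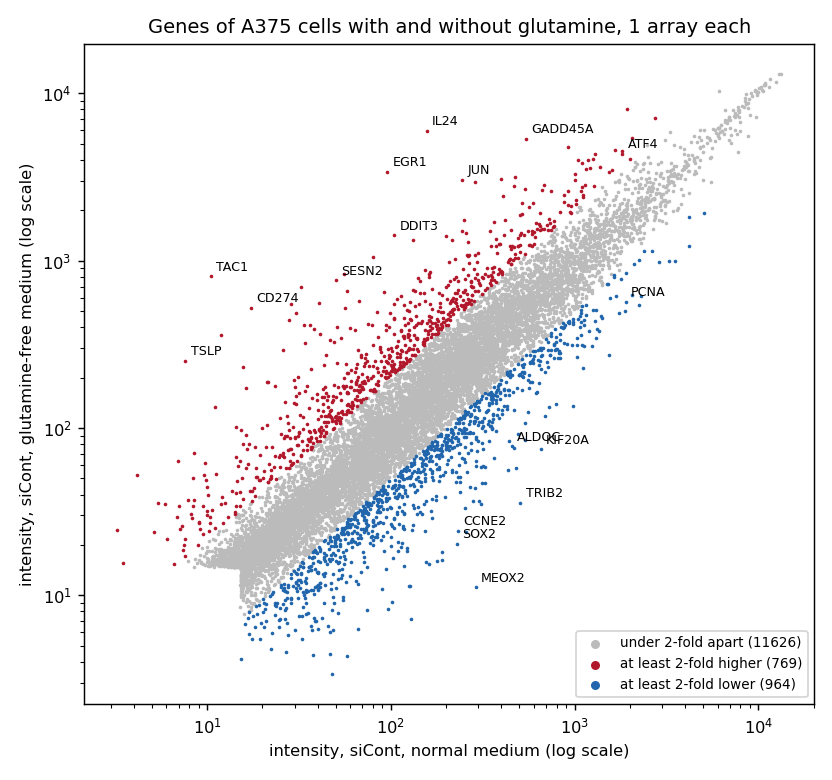
Intensity of each of the 13359 genes compared in siCont cells, in normal medium (horizontal) and in glutamine-free medium (vertical), both on log axes, 1 array each. Genes at least 2-fold higher without glutamine (769) are red and those at least 2-fold lower (964) blue, and the others hug the diagonal.

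The 2 directions differed in where they fell on the intensity scale. In the dimmest of 5 equal groups of genes, with geometric mean intensities of 7.64 to 27.3, 2.28% were higher and 6.36% lower. In the brightest group, from 392 upwards, 6.77% were higher and 3.97% lower. Lower genes were most frequent in the second group, at 10.6%, and higher genes in the third, at 7.64%. Of the higher genes 706 were above the median on both arrays and 63 on only 1 of them. For the lower genes these numbers were 804 and 160, and the differences of those 160 rest on a background reading without glutamine.

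**Figure D2:**
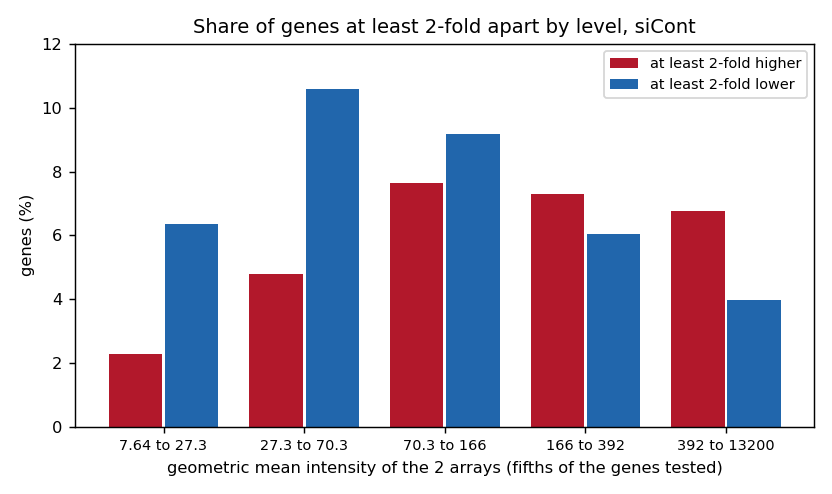
Share of genes at least 2-fold higher (red) and lower (blue) without glutamine in siCont cells, in 5 groups of 2671 or 2672 genes by the geometric mean intensity of the 2 arrays. Lower genes outnumber higher ones in the 3 dimmer groups, and higher ones outnumber lower ones in the 2 brighter groups.

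Other probe sets of the same genes mostly moved the same way. For 419 higher genes with at least 2 usable probe sets, 92.6% of the 712 further probe sets had the same sign, 57.9% were at least 2-fold higher themselves and 1 was at least 2-fold lower. For 478 lower genes the shares were 92.0% and 43.0% of 777 probe sets, with 3 opposite. Probe sets read the RNA of the same arrays, so this describes the measurement of a gene and is no replicate of the culture.

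The kinases that sense stress and phosphorylate eIF2 alpha changed little in mRNA. GCN2 (EIF2AK4, the sensor of uncharged tRNA) read 295 with and 249 without glutamine, PERK (EIF2AK3, of the ER) 150 and 128, and HRI (EIF2AK1) 460 and 361. On the eIF2 axis 2 of 15 stood at least 2-fold higher (13.3%) and 0 lower, against 5.76% and 7.22% of all genes. Both higher genes encode regulatory subunits of the phosphatase that removes the phosphate from eIF2 alpha. PPP1R15A (GADD34, the inducible subunit) read 80.2 and 1050, a difference of 3.69, and PPP1R15B (the constitutive subunit) 493 and 1230, a difference of 1.32. These 2 subunits were thus high while the kinases lay within 1.5-fold.

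ATF4, its partners and its pseudokinase regulators stood high. ATF4 mRNA itself read 1814 in siCont normal and 4360 in siCont glutamine-free medium, against 1519 and 1498 in siBRAF cells and 534 in siATF4 cells in normal medium. The siCont glutamine-free array was the highest of the 5, and the siATF4 array, which checks that label, the lowest. This network of 20 had 13 members at least 2-fold higher and 2 lower. The median was 1.16 (0.73 when all probe sets of a gene were averaged). DDIT3, which encodes CHOP, the partner that turns prolonged stress toward death, read 105, 1420, 184, 143 and 101 in siCont normal, siCont glutamine-free, siBRAF normal, siBRAF glutamine-free and siATF4 normal cells. Only the siCont glutamine-free value stood apart, at a difference of 3.75. TRIB3, a pseudokinase that feeds back on ATF4, read 397 and 3078 in the siCont pair, and its relative TRIB1 366 and 769. The third family member went the other way, with TRIB2 at 506 and 35.7, a difference of -3.79 and the lowest of all genes above the median on both arrays. Among C/EBP factors, CEBPG, the partner of ATF4 on amino acid genes, read 97.6 and 401 and CEBPB 1151 and 3546, while CEBPD read 183 and 57.0 (-1.66). NUPR1, a small stress-induced chromatin protein, read 15.7 and 232, and NFIL3, a bZIP repressor, 98.9 and 490. ATF5, another factor under translational control, read 65.0 and 55.4.

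ATF3, the stress-induced bZIP repressor, was the network's highest member, at 28.7 and 551 in the siCont pair (4.21). It differs from DDIT3 in the siBRAF arrays, which read 738 with and 950 without glutamine, above the siCont glutamine-free value. On siATF4 in normal medium it read 33.2. Its probe sets were unequal: 1 further set read 32.6 and 243 and another 15.3 and 18.4. ATF3 and CHAC1, which degrades glutathione and is a CHOP and ATF4 target (26.7 and 144, difference 2.39), are shown with ASNS because their promoters hold the element TGATGNAA that ATF4 and C/EBP dimers bind. The sequences run from 250 bases before to 30 after the start of the gene, 5' to 3' on the gene's strand, from RefSeq (GRCh38.p14), with the element in capitals. ASNS lies at chr7:97872379-97872658 on the minus strand, ATF3 at chr1:212565157-212565436 on the plus strand and CHAC1 at chr15:40953221-40953500 on the plus strand, where the element is on the opposite strand and reads as its reverse complement.
ASNS: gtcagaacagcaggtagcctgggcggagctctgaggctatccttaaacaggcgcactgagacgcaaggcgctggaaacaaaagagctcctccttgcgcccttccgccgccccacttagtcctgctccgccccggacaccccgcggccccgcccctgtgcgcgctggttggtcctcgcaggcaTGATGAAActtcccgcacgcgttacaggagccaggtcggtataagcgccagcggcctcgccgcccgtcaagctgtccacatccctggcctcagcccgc
ATF3: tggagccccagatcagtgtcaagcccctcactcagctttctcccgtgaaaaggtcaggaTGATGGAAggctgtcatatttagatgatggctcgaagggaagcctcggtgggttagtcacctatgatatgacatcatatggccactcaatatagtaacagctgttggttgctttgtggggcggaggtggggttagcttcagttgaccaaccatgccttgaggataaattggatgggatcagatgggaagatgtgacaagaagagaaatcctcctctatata
CHAC1: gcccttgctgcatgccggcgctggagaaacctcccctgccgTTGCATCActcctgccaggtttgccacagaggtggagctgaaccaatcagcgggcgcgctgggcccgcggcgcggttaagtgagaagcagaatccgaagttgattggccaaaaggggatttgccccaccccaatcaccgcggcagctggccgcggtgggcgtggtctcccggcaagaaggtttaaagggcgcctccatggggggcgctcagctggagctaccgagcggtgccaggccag

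Counted from the start of the gene, the element lies at -68 to -61 in ASNS, -191 to -184 in ATF3 and -209 to -202 in CHAC1. TGATGNAA on either strand was found in 3.67% of 27305 promoters of 300 bases (250 before to 50 after the start) and in 1.96% of the 10768 promoters of genes compared. Among the 624 promoters of higher genes it was in 28 (4.49%), among the 780 of lower genes in 15 (1.92%), and among the 102 of genes at least 4-fold higher in 8 (7.84%). Read from the other side, 13.3% of genes with the element were at least 2-fold higher, against 5.65% without it. Most higher genes have no match in this window, and a match is a run of letters rather than a measured site.

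Amino acid synthesis was high at steps that make asparagine, serine, folate-bound carbon units and cysteine. At other steps it was unequal, with GOT1 (2.29) and PYCR1 (1.36) also at least 2-fold higher. Among 20 genes, 10 stood at least 2-fold higher and 0 lower, and 14 were above 0. ASNS, which uses glutamine to make asparagine, read 288 and 2949 in the siCont pair, 118 and 117 in the siBRAF pair and 138 in siATF4 cells. The siCont glutamine-free array was thus the only high one, at a difference of 3.35. That value comes from the probe set that reads the transcript well, while the other ASNS probe set read 2.76 and 2.74, at background, so that leaving out probe sets shared between transcripts leaves no usable value. The serine route from glycolysis was higher at all 3 steps, with PHGDH at 388 and 887, PSAT1 at 1115 and 2470 and PSPH at 209 and 755. Mitochondrial folate enzymes followed, with MTHFD2 at 1651 and 4553, ALDH1L2 at 41.3 and 364 and SHMT2 at 771 and 1388 (0.85). The cytosolic folate enzyme MTHFD1 read 761 and 601. Transsulfuration, which makes cysteine from homocysteine, stood out: CTH read 55.6 and 826 (3.87), the highest of the list, and CBS 60.2 and 396 (2.70).

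Enzymes that interconvert glutamate were unequal. Cytosolic GOT1 read 264 and 1295 (2.29) and mitochondrial GOT2 899 and 794. In proline synthesis PYCR1, the last step, read 108 and 280, and ALDH18A1, the first, 435 and 354. BCAT1, the cytosolic branched-chain transaminase, read 850 and 1399 (0.72), and mitochondrial BCAT2 283 and 199 (-0.51). The alanine transaminase GPT and PYCR3, another proline enzyme, were at -0.04 and -0.27.

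Enzymes that consume glutamine were near their level in normal medium. In a list of 16, 2 stood at least 2-fold higher and 0 lower, and the median was -0.02. The higher ones were ASNS and GFPT1 (393 and 1253), the entry enzyme of hexosamine synthesis. Glutamine synthetase GLUL, which would replace the missing amino acid, read 71.6 and 71.2, and glutamate dehydrogenase GLUD1 735 and 715. Of the amidotransferases of nucleotide synthesis, PPAT, PFAS, GMPS and CTPS1 lay at 0.09, 0.12, -0.14 and -0.12. The pyrimidine enzyme CAD read 183 and 106 (-0.78), under 2-fold. In the wider list of 24 nucleotide synthesis genes the median was -0.28, and 2 stood at least 2-fold lower and 0 higher, TYMS, which makes thymidylate (2639 and 1144), and PRPS2, which makes the ribose donor (653 and 298). That share, 8.33%, is near the 7.22% of all genes, and the count was 1 when probe sets were averaged and 4 of 21 with shared probe sets left out.

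In the list of the tricarboxylic acid cycle, its refilling and pyruvate entry, 1 of 30 genes was at least 2-fold higher (3.33%) and 3 were lower (10.0%). The median was -0.18, and the shares are near the 5.76% and 7.22% of all genes. The higher gene was PCK2, the mitochondrial enzyme that turns oxaloacetate into phosphoenolpyruvate (64.2 and 384, difference 2.56). PDK3 (168 and 37.5) and PDK4 (117 and 25.9), kinases that switch off pyruvate dehydrogenase, were both at -2.13. The dehydrogenase subunits PDHA1 and PDHB were each at -0.17, so the kinases and their substrate differed in size. Mitochondrial IDH2 read 88.3 and 42.8.

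Amino acid transporters were unequal. At least 2-fold, 9 of 22 carriers stood higher and 2 lower, around a median of 0.60. SLC3A2, the heavy chain shared by several exchangers, read 682 and 2813. Of its light chains SLC7A11 for cystine (262 and 1062) and SLC7A5 for leucine (1544 and 3381) were higher too, while SLC7A6 and SLC7A8 lay at -0.53 and -0.03. The glutamine carriers SLC1A5 (210 and 557) and SLC38A1 (505 and 1423) were at 1.41 and 1.49, and SLC38A2, already bright at 2520, reached 4151 (0.72). The cationic carrier SLC7A1 read 919 and 2142, while its relative SLC7A2 read lower, at -1.43. Among glutamate carriers, SLC1A1 read 292 and 59.0 (-2.29) and SLC1A3 96.9 and 68.8 (-0.49). SLC1A4, a carrier of serine and alanine, read 113 and 247, and 1 of its dim probe sets 9.81 and 9.22. SLC38A9, the lysosomal arginine sensor of mTORC1, read 101 and 252.

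The tRNA synthetases divided by compartment. Of 17 cytosolic synthetases 15 were above 0, 6 of them at least 2-fold, and the median was 0.84. WARS1 (568 and 2097), SARS1 (742 and 2589) and CARS1 (877 and 2450) led. The enzyme for lysine stayed out, with KARS1 at 4533 and 3455 (-0.39). Of 15 mitochondrial synthetases 1 was at least 2-fold higher, MARS2 (70.8 and 187), 0 were lower and the median was -0.26, with 12 below 0. Within the lists of synthesis, transport and cytosolic charging, 12 promoters held TGATGNAA, and 7 of those genes were at least 2-fold higher, with a median of 1.23. Among the 33 without it 13 were higher, with a median of 0.46. The 5 synthetases with the element were AARS1, CARS1, IARS1, NARS1 and TARS1, at 1.23, 1.48, 0.83, 0.88 and 0.84.

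**Figure D3:**
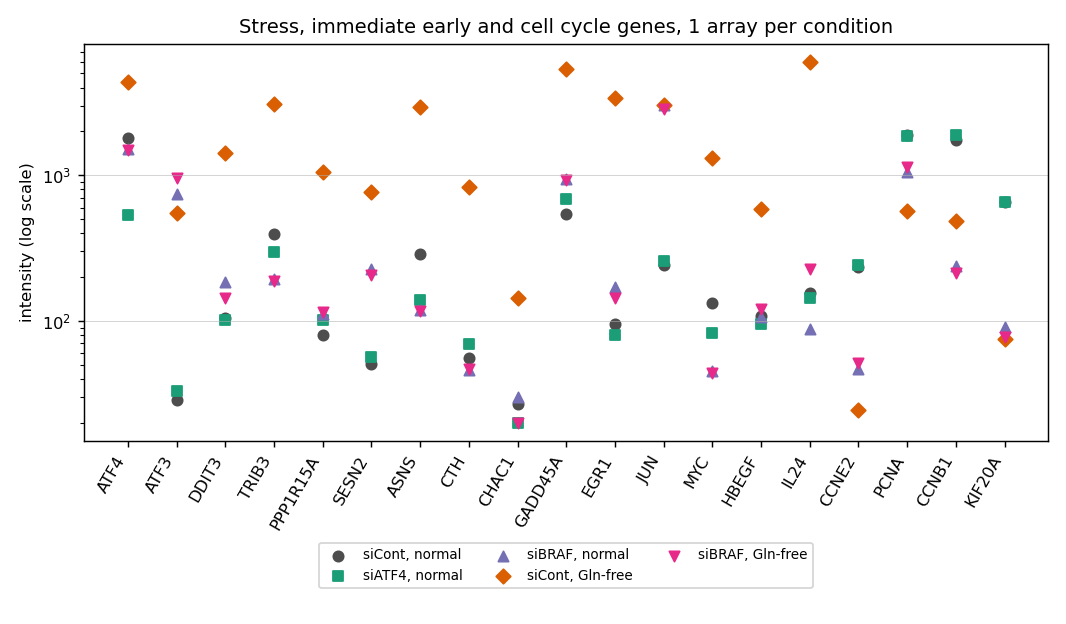
Intensities (log axis) of 19 genes on the 5 arrays of the medium series, 1 symbol per array. The siCont glutamine-free array (orange) stands above the others for ATF4, DDIT3, ASNS, MYC and IL24 and below them for PCNA and CCNE2, while ATF3 and JUN are similar or higher on the siBRAF arrays and CCNB1 and KIF20A similar or lower there.

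Among 21 genes of amino acid sensing and mTORC1 restraint 1 stood at least 2-fold higher and 1 lower, around a median of -0.10. Each share, 4.76%, lay under that of all genes, 5.76% higher and 7.22% lower. SESN2, a leucine-sensing sestrin that inhibits mTORC1 through GATOR2, read 50.3 and 764 (3.90) and its second probe set 42.9 and 549. DEPTOR, an inhibitory subunit of mTOR complexes, read 74.7 and 23.6 (-1.62), and the other 19 of the 21 genes lay within 2-fold. DDIT4 (REDD1), the stress-induced brake upstream of TSC2, read 1229 and 1882. The 33 autophagy and lysosome genes had a median of 0.11. At least 2-fold, 4 were higher (12.1%) and 1 lower (3.03%), or 1 of 21 higher with shared probe sets left out. The higher genes build or load the autophagosome: ATG12 (539 and 2664), the LC3 gene MAP1LC3B (593 and 2201), GABARAPL1 (110 and 332) and WIPI1 (125 and 252). Their near relatives stayed, with MAP1LC3A at 173 and 173 and GABARAPL2 at 1276 and 1330. The lysosomal enzyme gene GLA read 199 and 80.8, and the lysosomal genes LAMP1, CTSB and CTSD lay at -0.15, -0.10 and -0.47.

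Immediate early genes, which growth factor and stress signals switch on within minutes, had a median of 1.67, and 13 of 20 stood at least 2-fold higher and 0 lower. EGR1, a zinc finger factor under serum response factor, read 95.6, 3403, 170, 144 and 80.3 in siCont normal, siCont glutamine-free, siBRAF normal, siBRAF glutamine-free and siATF4 normal cells. The siCont glutamine-free array was the only high one, and all 3 EGR1 probe sets differed by 5.14 to 5.57. JUN read 243 and 3049 in the siCont pair, but 3058 and 2858 in the siBRAF pair, so its high level was not particular to the siCont glutamine-free array. MYC, a bHLH transcription factor that promotes growth, read 133 and 1321 in the siCont pair and 45.5 and 43.6 in the siBRAF pair. FOS read 23.4 and 179, FOSL1 267 and 1082, JUNB 126 and 358 and IER2 1177 and 4011. Members below 2-fold included FOSL2 (0.83), JUND (0.44) and NR4A2 (-0.39).

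The EGR1 promoter is shown because it holds 2 matches to the CArG box, the serum response factor element, in the bases before its start. It lies at chr5:138465229-138465508 on the plus strand (GRCh38.p14, RefSeq), with the matches in capitals.
EGR1: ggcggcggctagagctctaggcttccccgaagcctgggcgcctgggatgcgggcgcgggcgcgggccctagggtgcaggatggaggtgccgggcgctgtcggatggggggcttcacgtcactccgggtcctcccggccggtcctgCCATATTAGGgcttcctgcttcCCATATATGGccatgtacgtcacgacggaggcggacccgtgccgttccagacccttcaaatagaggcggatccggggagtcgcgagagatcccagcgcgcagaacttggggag

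The matches lie at -105 to -96 and -83 to -74 from the start of EGR1. The CArG box was found in 1.29% of all promoters of this length, in 1.13% of those compared, in 3.04% of the higher genes (19 of 624), in 0.897% of the lower genes and in 5.88% of those at least 4-fold higher. EGR1 was the only one of 15 immediate early genes with a RefSeq promoter here that held a match.

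Genes that feed back on ERK split. The list of 21 had a median of 0.56, with 6 at least 2-fold higher (28.6%) and 2 lower (9.52%). Over all genes compared these shares were 5.76% and 7.22%. The nuclear phosphatases DUSP5 (144 and 757), DUSP2 (21.3 and 105) and DUSP1 (118 and 454) were higher, as was SPRY2 (1144 and 2819). DUSP4, a nuclear phosphatase of the same family, read 1123 and 307 (-1.87) and SPRY1 54.8 and 18.3 (-1.53). Among other readouts of ERK output, PHLDA1 passed 2-fold at 1.02, DUSP6, SPRY4 and SPRED2 lay under it at 0.96, 0.70 and 0.61, and ETV4, ETV5 and CCND1 lay at -0.16, 0.02 and -0.03. Among EGF family ligands HBEGF read 108 and 587 (2.44) and TGFA 1343 and 866 (-0.63).

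Secreted stress factors had the highest median of the lists described here, 1.75, with 7 of 11 at least 2-fold higher and 0 lower. TAC1, which encodes substance P, read 10.5 and 806 in the siCont pair, 231 and 716 in the siBRAF pair and 4.96 in siATF4 cells. It differed more than any other gene (6.14), from a value below the median. GDF15, a hormone of stress and nausea, read 40.8 and 556 in the siCont pair, 41.6 and 38.3 in the siBRAF pair and 192 in siATF4 cells. INHBA, the activin subunit, went from 1940 to 8107, STC2 from 50.7 to 401 and VEGFA from 293 to 987, with all 4 VEGFA probe sets between 1.18 and 1.75. FST, which traps activin, read 769 and 1479 (0.94), and FGF21 lay below the median on both arrays.

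Cytokine genes included some of the largest differences, with 10 of 20 at least 2-fold higher and 2 lower. IL24 read 157, 5990, 87.5, 226 and 145 in siCont normal, siCont glutamine-free, siBRAF normal, siBRAF glutamine-free and siATF4 normal cells, the highest difference of all genes above the median on both arrays (5.25). IL6 read 32.3 and 692, LIF 200 and 1408 and IL11 251 and 1748, all ligands of receptors that contain gp130. TSLP, an epithelial cytokine, read 7.61, below the median, and 253. Among neutrophil-attracting chemokines CXCL8 read 1261 and 4071, CXCL2 186 and 531 and CXCL3 116 and 247. CXCL1 read 1036 and 1503 (0.54). The other CXCL2 probe sets lay at background, the brightest of them at 5.85 in normal medium. CXCL10, an interferon-driven chemokine, read 45.0 and 15.4, and IL18 33.4 and 14.7, the last below the array median. These are the 2 lower genes of the list, and 0 were lower with 16 added or with the filter at the 75th percentile.

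The NF-kB list had 7 of 16 genes at least 2-fold higher and 1 lower, and its median was 0.98. Its inhibitors stood among the higher genes: TNFAIP3 (A20) read 113 and 615, NFKBIE 49.3 and 181 and NFKBIA 251 and 651. Of the subunit genes RELB passed 2-fold, at 38.3 and 96.9 (1.32). NFKB1, NFKB2 and REL lay just under it, at 0.94, 0.98 and 0.98, and RELA at 0.32. Of 13 KLF factors 8 stood at least 2-fold higher and 0 lower, KLF5 (256 and 1469), KLF10 (363 and 1696), KLF4 (224 and 1028) and KLF6 (267 and 963) among them. When all probe sets of a gene were averaged, 5 KLF genes were past 2-fold and the list median was 0.64. In the MYC network MXD1, which competes with MYC for MAX, read 33.5 and 413, with all 3 probe sets at 2.22 to 3.58. MXI1, another MAX partner, read 347 and 162, and MAX itself 297 and 318. YAP target genes were higher in 6 of 15, among them the matrix proteins CCN1 (663 and 2631) and CCN2 (a difference of 1.70), while YAP1 and WWTR1 (TAZ) lay at -0.45 and -0.72.

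DNA replication genes were lower along the whole path from licensing to synthesis. All 41 genes compared were below 0, 20 of them at least 2-fold, against 7.22% of all genes, and the median was -0.99. Licensing factors were among them, with ORC1 at 144 and 31.4, CDT1 at 291 and 88.7 and the helicase subunit MCM2 at 837 and 262. PCNA, the sliding clamp, read 1895 and 568 in the siCont pair, 1060 and 1138 in the siBRAF pair and 1856 in siATF4 cells. GMNN, the inhibitor of CDT1, read 614 and 161, and the GINS subunit GINS2 291 and 63.2. POLE2, a subunit of the leading strand polymerase, was at -2.33, the lowest of the list. CDC45, ORC6 and POLA1 stayed near their level, at -0.21, -0.19 and -0.03.

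Genes of G2 and mitosis were lower in 25 of 49 and higher in 0, with a median of -1.03 that moved to -0.89 when all probe sets were averaged. KIF20A, a kinesin of cytokinesis, read 655, 74.9, 90.3, 76.9 and 656 in siCont normal, siCont glutamine-free, siBRAF normal, siBRAF glutamine-free and siATF4 normal cells. Both normal-medium arrays without siBRAF were high and the other 3 low. Kinetochore subunits differed within 1 complex: SPC25 read 110 and 18.5, SPC24 216 and 54.9, NUF2 572 and 271 and NDC80 282 and 239. The cyclins CCNB1 (1744 and 485) and CCNB2 (768 and 264) were lower, and their kinase CDK1 read 1018 and 704 (-0.53). The phosphatases that activate it were unequal, with CDC25C at 88.4 and 21.4 and CDC25B at 829 and 545. MKI67 and TOP2A, common proliferation markers, were at -0.73 and -0.72. In bulk RNA a smaller share of cycling cells and less RNA in each of them cannot be told apart.

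Control genes of G1 were unequal, with 5 of 24 at least 2-fold lower (20.8%) and 1 higher (4.17%). Over all genes compared these shares were 7.22% and 5.76%. CCNE2 read 233 and 24.4 (-3.20) with its second probe set at -3.24, while its paralog CCNE1, the other E-type cyclin, read 144 and 77.5 (-0.88). SKP2, which marks the CDK inhibitor p27 for destruction, read 829 and 280. The inhibitor genes did not share a direction: CDKN1A (p21) read 532 and 1050 (0.98), CDKN1B (p27) 463 and 354 and CDKN1C (p57) 442 and 156. The atypical repressors E2F7 (353 and 909) and E2F8 (71.3 and 15.9) went opposite ways. CDK4, CDK2 and CCND1 were at 0.12, -0.11 and -0.03.

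A promoter of each cell cycle list is shown because it carries the motif its list is known for. SPC25, at chr2:168890401-168890680 on the minus strand, has 2 matches to TTTGAA, part of the CHR element of late cell cycle genes, and MCM2, at chr3:127598161-127598440 on the plus strand, has 2 overlapping matches to the E2F site on opposite strands. Both are from RefSeq (GRCh38.p14) with matches in capitals.
SPC25: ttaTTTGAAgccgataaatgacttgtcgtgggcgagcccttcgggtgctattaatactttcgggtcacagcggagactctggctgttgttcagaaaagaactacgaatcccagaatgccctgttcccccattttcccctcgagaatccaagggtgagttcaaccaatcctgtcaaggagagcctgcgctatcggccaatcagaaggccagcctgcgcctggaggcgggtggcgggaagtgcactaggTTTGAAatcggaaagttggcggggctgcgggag
MCM2: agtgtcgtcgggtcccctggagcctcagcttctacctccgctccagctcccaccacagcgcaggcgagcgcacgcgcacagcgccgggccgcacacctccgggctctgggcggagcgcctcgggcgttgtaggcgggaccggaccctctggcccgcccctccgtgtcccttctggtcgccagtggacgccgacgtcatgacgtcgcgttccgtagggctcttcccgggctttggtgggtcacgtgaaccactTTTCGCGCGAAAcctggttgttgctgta

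The matches lie at -247 to -242 and -3 to 3 from the start of SPC25, and at 3 to 10 and 7 to 14 from that of MCM2. TTTGAA was in 29 of 42 promoters of the mitosis list (69.0%), against 9.88% of promoters compared, and the E2F site in 11 of 35 of the replication list (31.4%), against 1.89%. Inside the lists the counts with and without the motif were close. Of mitosis genes 15 of 29 with TTTGAA and 7 of 13 without it were at least 2-fold lower, and of replication genes 5 of 11 with the E2F site and 11 of 24 without it. Over all genes compared, 9.77% of those with TTTGAA were lower, against 6.97% without it, and 9.31% of those with the E2F site, against 7.2%.

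**Figure D4:**
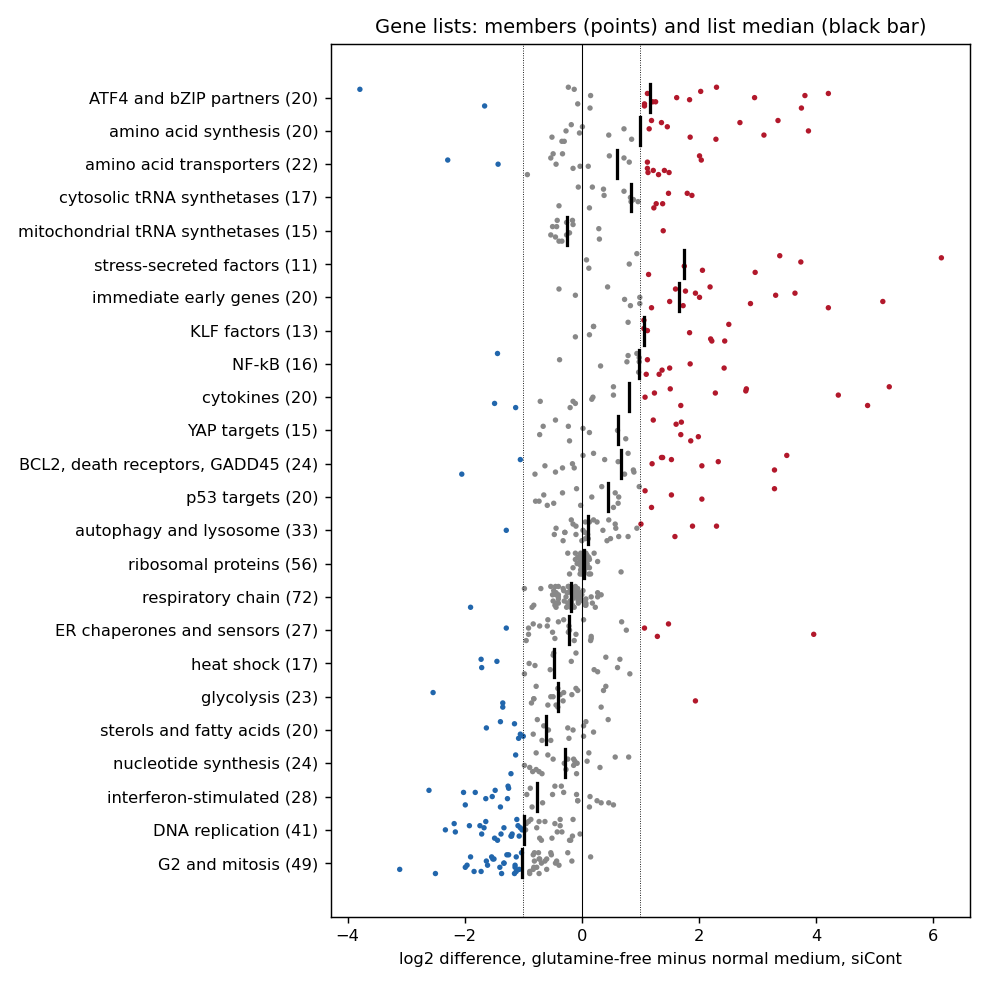
Log2 differences, glutamine-free minus normal medium, in siCont cells for the compared members of 24 gene lists (number in brackets), with the list median as a black bar and dotted lines at 2-fold. Secreted stress factors have the highest median (1.75) and the mitosis list the lowest (-1.03), and ribosomal proteins cluster at 0.03.

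DNA repair genes were lower in 3 of 21, the mismatch gene MSH6 (830 and 336), FANCM and FANCB, which lay below the median without glutamine. The count was 1 with 16 added, with the filter at the 75th percentile and when probe sets were averaged. BRCA1 was at -0.54 and CHEK1 at -0.41. Histone genes were at least 2-fold higher in 4 of 13 (30.8%, against 5.76% of all genes) and lower in 1 (7.69%, near the 7.22% of all genes). The higher ones were H4C8, H2AC6 (93.8 and 385), H2BC21 and H1-2 (209 and 468), and the lower one was H2AX (881 and 321), the variant phosphorylated at DNA breaks. Probe sets of histone genes may read near-identical copies, so the member is uncertain, and 2 were higher with the filter at the 75th percentile or with shared probe sets left out.

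Some growth arrest and death genes were high, on both the killing and the protecting side. GADD45A, a stress-induced arrest factor, read 544, 5350, 935, 923 and 692 in siCont normal, siCont glutamine-free, siBRAF normal, siBRAF glutamine-free and siATF4 normal cells. Its relative GADD45B read 57.5 and 662, while GADD45G lay near background (15.8 and 14.1). In the death list 8 of 24 stood at least 2-fold higher (33.3%) and 2 lower (8.33%), against 5.76% and 7.22% of all genes. The lower share is near that of all genes. On the killing side were PMAIP1 (NOXA; 420 and 1749), the TRAIL receptor TNFRSF10B (DR5; 509 and 1470) and BIK (75.2 and 194). On the protecting side were MCL1 (2056 and 5370), BCL2A1 (31.5 and 162) and BCL2L2 (159 and 365). Other genes of the killing side stayed under 2-fold. BAD, BMF, BID and BAX lay at -0.80, -0.63, -0.45 and -0.33, and BCL2L11, BAK1 and HRK at 0.02, 0.39 and 0.89. BNIP3 and BNIP3L, mitophagy receptors, were the lower ones, at 2230 and 539 and at 741 and 356. The p53 target list had 5 of 20 at least 2-fold higher and 0 lower. The higher ones were GADD45A, PMAIP1, TNFRSF10B, AEN and PLK3, and the count was 3 of 12 with shared probe sets left out. Of the 20 genes 12 were above and 8 below 0. Under 2-fold, CDKN1A, MDM2, FAS and RRM2B lay at 0.98, 0.63, 0.62 and 0.57, and SESN1, CCNG1, DDB2 and ZMAT3 at -0.79, -0.73, -0.65 and -0.59.

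Unfolded protein genes did not move as a group. The 27 ER genes had a median of -0.22, with 4 at least 2-fold higher (14.8%) and 1, ERO1B, lower (3.70%). Over all genes compared these shares were 5.76% and 7.22%, and the 4 became 2 when probe sets were averaged. The higher genes were the sensor ERN1 (IRE1; 30.3 and 485), its substrate XBP1 (166 and 349), HERPUD1 (725 and 1769) and DNAJB9 (180 and 503). For ERN1 the other 2 probe sets, both dim, differed by 0.11 and 0.45. The chaperone HSPA5 (BiP) read 3107 and 5270 (0.76), while the folding enzymes PDIA4, PDIA6 and CALR read lower, at -0.95, -0.59 and -0.72. The ER stress element was in 7 of 24 promoters of this list (29.2%), against 0.121% of promoters compared and 0.0806% of all promoters. Of the 7 genes with it 1 was at least 2-fold higher and 1 lower, and of the 17 without it 3 were higher and 0 lower. In the heat shock list 0 of 17 stood at least 2-fold higher and 3 lower: HSPB1 (1030 and 312), DNAJA1 (2044 and 623) and HSPE1 (1676 and 612), or 1 of 12 with shared probe sets left out. HSPE1 works as the lid of HSPD1, which read 6374 and 5933.

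The list of NRF2, its antioxidant targets and CHAC1 had 4 of 20 at least 2-fold higher and 2 lower, or 2 and 1 when probe sets were averaged. Of the 4, SLC7A11 and TXNRD1 (962 and 1933) are known NRF2 targets, NFE2L2 (711 and 1640) encodes NRF2 itself, and CHAC1 belongs to the ATF4 and CHOP route. PRDX1, a peroxiredoxin, read 5048 and 1919 and AKR1C1 362 and 148. NQO1 and GCLM were at 0.34 and 0.18.

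Glycolysis and the hypoxia targets read lower in the main. Of 23 glucose genes 19 were below 0, around a median of -0.41. At least 2-fold, 3 were lower (13.0%) and 1 higher (4.35%), against 7.22% and 5.76% of all genes. ALDOC, an aldolase, read 456 and 77.8 (-2.54), PFKFB3, which makes the activator of phosphofructokinase, 294 and 115, and ENO2 227 and 88.4. LDHA read 7802 and 4434 (-0.82). The higher gene was ARRDC3, an arrestin domain protein (142 and 547), while its relative TXNIP read 204 and 257. The hypoxia list of 9 genes, with a median of -0.68, held both directions: VEGFA and ADM were at least 2-fold higher, BNIP3 and P4HA1 (749 and 293) at least 2-fold lower, or 1 and 1 of 5 with shared probe sets left out.

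Lipid synthesis genes were lower on both the fatty acid and the sterol side. The list of 20 had a median of -0.61, and 5 stood at least 2-fold lower and 0 higher, or 3 lower with 16 added to the intensities or with shared probe sets left out. SCD, the stearoyl desaturase, read 971 and 313, and SREBF1, which drives fatty acid synthesis, 182 and 69.0. LSS, NSDHL and STARD4 of the sterol side lay between -1.05 and -1.15. Apart from SCD, the fatty acid enzymes did not pass 2-fold, with FASN at 142 and 70.7, ELOVL6 at -0.76 and ACACA at -0.68. HMGCS1, SQLE and MSMO1, also targets of SREBP2, lay at 0.07, 0.03 and 0.20.

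Genes of large complexes seldom passed 2-fold. Of 56 ribosomal protein genes 0 were at least 2-fold apart, with a median of 0.03, and 2 of 29 were lower with shared probe sets left out. The respiratory chain had 1 of 72 lower, NDUFB10 (1877 and 501), or 2 with quantile normalization, and 60 of 72 lay below 0 around a median of -0.18. There were 50 of 75 below 0 among mitochondrial ribosomal proteins, with 2 at least 2-fold lower, MRPL44 (257 and 98.5) and MRPL23 (591 and 245), and a median of -0.16. Those 2 became 1 when probe sets were averaged and 0 with shared probe sets left out. Of 33 proteasome genes 27 lay below 0, around a median of -0.25. At least 2-fold lower was 1, PSMB6, or 2 when probe sets were averaged and 4 of 22 with shared probe sets left out. Ribosome biogenesis factors, many of them MYC targets, had a median of 0.08 with 2 of 19 higher, NIP7 (605 and 1251) and WDR43 (250 and 512), just past 2-fold. They were 0 with quantile normalization and 1 with 16 added or with shared probe sets left out. Among noncoding RNAs that host small nucleolar RNAs, ZFAS1 read 2756 and 7151 and EPB41L4A-AS1 507 and 1872, while GAS5 lay near background.

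Interferon-stimulated genes were lower in 11 of 28 and higher in 0, with a median of -0.76. PARP9 (81.6 and 22.4), IFIT3 (151 and 57.0), IFI6 (141 and 48.2) and OAS3 (164 and 67.1) stayed above the median on both arrays. Several others lay below it without glutamine, such as IFIT1 (45.3 and 6.58) and OAS1 (32.7 and 7.47), so their sizes rest on background. Counting only genes above the median on both arrays left 7 lower of 24, and adding 16 to the intensities left 7 of 28. RIGI, IRF7 and SAMD9L were at -0.07, -0.07 and -0.09. In siBRAF cells the same list had a median of -0.39. Of 14 antigen presentation genes 1 was at least 2-fold lower, the peptidase ERAP2 (35.8 and 14.8), and 0 higher. That lower share, 7.14%, is near the 7.22% of all genes. HLA-B was at 0.06, B2M at -0.05 and the immunoproteasome genes PSMB8 and PSMB9 at -0.81 and -0.95. CD274, the checkpoint ligand PD-L1, read 17.3 and 522 in the siCont pair (4.84), 8.17 and 12.6 in the siBRAF pair and 15.5 in siATF4 cells. Its second probe set differed by 3.84.

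Lineage and adhesion genes were altered in part. In the melanocyte and neural crest list 1 of 17 was at least 2-fold higher (5.88%) and 3 were lower (17.6%). Over all genes compared these shares were 5.76% and 7.22%, so the higher share is near that of all genes. SNAI2 read 8.42 and 50.2, from background, while ERBB3 (652 and 251), S100B (288 and 110) and EDNRB (154 and 69.8), neural crest genes, were lower. Among 15 receptor kinases, some of them tied to drug tolerance, 3 stood at least 2-fold higher and 1 lower, around a median of -0.37. The higher ones were EPHA2 (452 and 1517), DDR2 (189 and 619) and EGFR (60.5 and 189), and the lower one was ERBB3. The lower share, 6.67%, is near the 7.22% of all genes. Of the 15 genes 10 lay below 0. Under 2-fold, AXL and MET lay at 0.78 and 0.69, FGFR1 and IGF1R each at -0.88 and ERBB2 at -0.7. In the matrix protease list 4 of 18 stood at least 2-fold higher and 2 lower, around a median of -0.18, or 2 and 1 of 12 with shared probe sets left out. The higher ones were MMP1 (143 and 636), MMP10 (9.84 and 49.1, from background), MMP9 (36.8 and 77.4) and the urokinase receptor PLAUR, which turned to -0.013 with shared probe sets left out. The other proteases lay mostly below 0, with MMP2 at -0.56, MMP16 at -0.54 and MMP14 at -0.19. The lower ones were the inhibitors TIMP2 (739 and 272) and TIMP3 (1356 and 382), TIMP3 in all 4 probe sets, at -1.83 to -2.13, while TIMP1 was at 0.82. The integrin subunits ITGA1, ITGA4 and ITGA9 were at -1.06, -1.12 and -2.38, of which 1 passed 2-fold with 16 added or when probe sets were averaged. ITGA9 lay below the median without glutamine, so its size rests on background. ITGB1 read 2585 and 2591. In the BMP and TGF beta list 1 of 22 genes stood at least 2-fold higher (4.55%) and 4 lower (18.2%), against 5.76% and 7.22% of all genes. The higher one was BMP2 (153 and 880). The lower ones, ID1, SMAD6, BAMBI and TGFBR3, of which the first 3 are BMP targets, were at -1.39, -1.96, -1.65 and -1.85. Their relatives stayed under 2-fold on both sides of 0, with ID2 and ID4 at -0.41 and -0.37 and ID3 and SMAD7 at 0.22 and 0.26. SMAD6 and TGFBR3 lay below the median without glutamine, which leaves 2 lower when both values must reach it.

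Clock genes and chromatin genes also held differences. PER2 (29.6 and 140), BMAL1 (73.0 and 278), BHLHE40 (206 and 712) and CRY1 (200 and 439) were at least 2-fold higher and DBP (60.8 and 20.9) and BHLHE41 lower, among 12 clock genes. BHLHE41 turned to 0.094 when probe sets shared between transcripts were left out, a setting that gave 2 higher and 0 lower of 7 clock genes. Of 18 demethylase genes KDM6B (129 and 443), JMJD1C (181 and 435) and KDM7A (58.7 and 139) were higher and TET1 (53.7 and 12.7) was lower. These shares, 16.7% and 5.56%, stood beside 5.76% and 7.22% of all genes. TET1 lay below the median without glutamine, so its size rests on background. Genes named ZNF formed a broad group, with 40 of 348 (11.5%) at least 2-fold higher and 8 (2.30%) lower and a median of 0.26. ZNF844 (a difference of 2.57) and ZNF550 (120 and 413) were among the higher ones. With 16 added to the intensities the counts were 26 and 2.

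The rule for the largest differences brought further genes beyond the lists. Above the median on both arrays were PLCXD2 (27.9 and 441), a phospholipase domain gene, on the higher side, and on the lower side IL17RD (190 and 16.2), an inhibitor of FGF signalling, the factors SOX2 (228 and 20.3), TFAP2B (a difference of -3.40) and NR2F1 (302 and 36.6), B4GAT1 (255 and 23.9), NRN1 (189 and 18.3), IGFBP5 (311 and 35.0), SHISA2 (482 and 57.9) and NREP (435 and 56.0). Not all usable probe sets of these genes passed 2-fold: 1 of 3 did for SOX2, 1 of 2 for B4GAT1, 1 of 2 for PLCXD2 and 4 of 6 for IGFBP5. SOX2 and NREP were brighter in siBRAF cells than on either siCont array, at 1269 and 1155 for SOX2 and at 2823 and 2757 for NREP. Genes above the median on 1 array only included RAB39B (11.9 and 360), a Rab GTPase, CREB5 (11.02 and 133) and INHBE (4.14 and 52.4), a secreted factor of the activin family, on the higher side and MEOX2 (290 and 11.2), a homeobox gene, LRRC17 (128 and 7.25) and PCDH7 (47.9 and 3.38) on the lower. Their sizes depend on background.

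Genes measured by at least 3 probe sets that all differed at least 2-fold the same way numbered 40 higher and 27 lower. Beside EGR1, JUN, MXD1 and ALDH1L2 the largest higher ones were ETS1 (470 and 2809), an ETS factor, ZFP42 (141 and 786), SLAMF7 (16.3 and 91.1) and SLFN5 (163 and 855). The largest lower ones were TNFRSF19 (270 and 44.6), the neurofilament gene NEFL (690 and 118), KBTBD7 (65.9 and 11.7), CXXC5 (341 and 84.0), SOX11 (253 and 62.8), ZMYM3, TIMP3 and the tubulin gene TUBB (4221 and 1225).

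The genes that differed in siCont cells were set beside their values in siBRAF cells under the same change of medium. Of the 769 higher genes 698 could be compared there, with a median of 0.03 and 5 at least 2-fold higher. Of the 964 lower genes 934 could be compared, with a median of -0.01 and 1 at least 2-fold lower. The shares with the same sign, 57.0% and 52.6%, stood beside 54.4% positive and 45.3% negative over all siBRAF genes. Values at the ends of both pairs were few: CYP1A1, a target of the aryl hydrocarbon receptor, read 36.9 and 87.2 in siCont and 56.0 and 174 in siBRAF cells, and GDA 283 and 890 and 130 and 273. Level and difference are separate quantities here, since JUN and ATF3 were high on both siBRAF arrays and KIF20A and CCNB1 low on both, with differences between media of -0.10, 0.36, -0.23 and -0.17. The difference between the siCont and siBRAF responses rests on 4 arrays and was not tested.

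**Figure D5:**
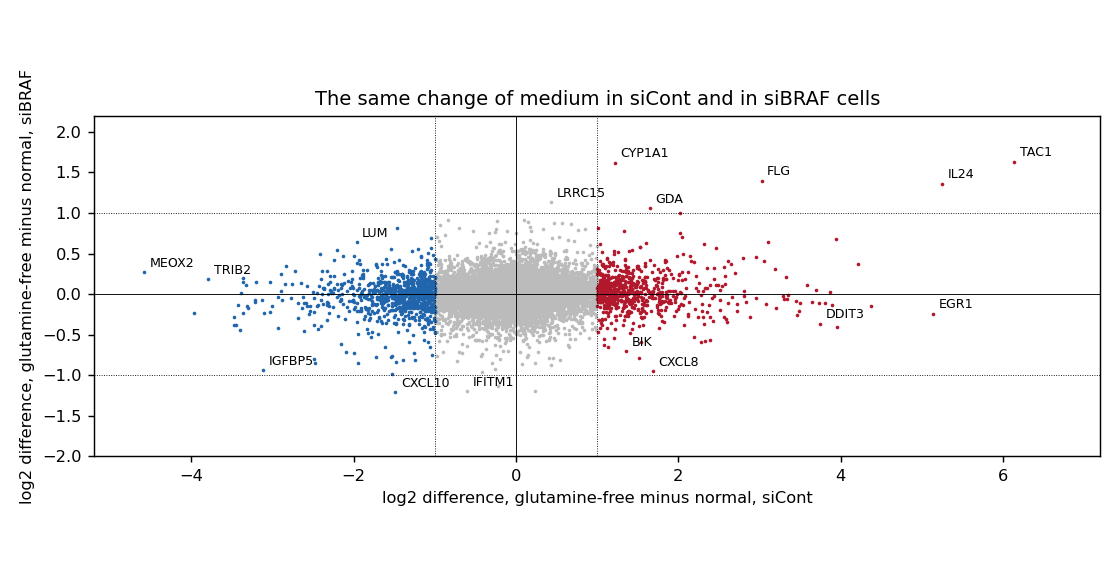
Log2 difference between glutamine-free and normal medium in siCont cells (horizontal) and siBRAF cells (vertical) for the 12783 genes compared in both, coloured red or blue where at least 2-fold apart in siCont cells, with dotted lines at 2-fold. The cloud is wide along the siCont axis (SD 0.72 over the siCont genes) and narrow along the siBRAF axis (SD 0.19), with TAC1, IL24, FLG, GDA and CYP1A1 high on both.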

How the data were processed

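RNA of A375 cells was measured on 8 arrays, 1 per condition. The authors deposited RMA intensities, per the submitters' processing notes, which are linear and carry no tool version. The file holds 54675 probe sets, of which 62 are controls, 41091 pair with 1 gene symbol in the platform annotation, 1801 with several and 11721 with none. Symbols were updated through the Entrez gene ID. The 3 arrays of DMSO and vemurafenib have medians of 36.4 to 36.9, against 14.8 to 15.5 on the 5 others, so differences were taken among the 5.

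Each gene was read from its probe set with 1 symbol and the highest mean log2 value over the 8 arrays. Differences of log2(intensity + 1) were counted at 2-fold, for genes whose higher value reached the 50th percentile of its array. No test was possible with 1 array per condition; the self-check on simulated pairs is not used in the text. Array data carry no read depth, and precision is limited by the number of arrays. Work was done in Python 3.11.15 with numpy 2.4.6 and pandas 2.3.3.

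Named genes are the 15 highest and 15 lowest above the median on both arrays, the 8 highest and 8 lowest above it on 1 array, members of 59 gene lists, and the 8 largest in each direction among genes with at least 3 probe sets all 2-fold apart; a few of each are given. The pairing, lists, motifs and rules were chosen with earlier results of these data known, and the promoters printed were chosen after their values were seen. Promoters come from RefSeq, of which 10768 matched genes compared by symbol. Matches to 2 of the motifs overlapped in 7 promoters. The alternatives were another added constant, 3 other filters, 2 scalings and 2 treatments of probe sets.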

Additional observations from a re-analysis of the deposited data

Results flagged for a closer look

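Of the genes followed, 5 were at least 2-fold apart in siCont cells and at least 1.5-fold apart the opposite way in siBRAF cells under the same change of medium. Smaller opposite signs were not counted, and the difference between the responses was not tested. CXCL8 was at 1.69 in siCont and -0.95 in siBRAF cells, CXCL2 at 1.51 and -0.78, and CXCL3 at 1.08 and -0.63. All 3 encode chemokines that attract neutrophils. BIK, a BH3-only death gene, was at 1.36 and -0.70. LUM, a matrix proteoglycan gene, was at -1.96 and 0.64, from a siCont glutamine-free value below the array median. Each value is the difference of 1 pair of arrays.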

How the results depend on the processing

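No paired analysis was possible because each condition has 1 array and the labels give no replicate numbers. The count of lower genes in siCont cells (964) was 630 with log2(intensity + 16) and 633 when probe sets of a gene were averaged, and between 649 and 980 under the 6 other settings. The 8 settings gave 583 to 825 higher genes (769). Of the higher genes 530 to 769, and of the lower 596 to 964, kept a difference of at least 2-fold. With shared probe sets left out, 16 of the 657 higher and 27 of the 814 lower genes that still had a value changed sign. When probe sets were averaged 2 lower genes changed sign. In siBRAF cells the 10 lower genes became 4 with log2(intensity + 16), 4 with the filter at the 75th percentile, 6 with both values at or above the median and 6 with shared probe sets left out. Of 906 genes followed, 9 reversed, all when probe sets shared between transcripts were left out: ASNS at -0.0077, BCL2L11 at -1.06, BHLHE41 at 0.094, CXCL2 at -0.24, DUSP8 at 1.72, PLAUR at -0.013, SLC1A4 at -0.081, SMAD4 at -1.16 and TMT1A at 0.14. For ASNS, CXCL2 and SLC1A4 the remaining probe sets lie at background. Of the other gene values 6873 kept their side of 2-fold, 139 fell under it and 41 passed it. List counts moved by over 1.5 times in 76 cases, 6 list medians came under 2-fold and 11 passed it, and 0 reversed. No depth applies to arrays, and dim genes are limited by background.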
